A study of Mus musculus with 8 samples.

Results

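The Fc gamma receptor genes Fcgr1, Fcgr2b, Fcgr3 and Fcgr4, together with Fcer1g, were followed through myeloid cells sorted from injured and uninjured mouse sciatic nerve. They were chosen by gene symbol, as the receptors for IgG antibodies that mouse myeloid cells carry plus the signalling chain they share, and they are 5 of 30406 genes found in all 4 matrices. All 5 passed the filter on low counts, which 11480 genes passed. Fc gamma receptors sit in the membrane of phagocytes and bind the constant part of IgG. The activating receptors signal through a tyrosine motif called an ITAM in the common gamma chain, which leads to phagocytosis and to the release of inflammatory mediators, whereas the inhibitory receptor carries an opposing motif called an ITIM and recruits phosphatases. A macrophage's response to antibody-coated debris depends on the balance between both kinds of receptor, and in injured nerve myelin debris is one such target.

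Cells came from male and female C57BL/6JolaHsd mice bought at 7 weeks of age. Sciatic nerves were taken 1 week after sham surgery, in which the nerve was exposed only, 1 or 15 weeks after partial sciatic nerve ligation (PSNL), in which part of the nerve is tied, and 1 or 15 weeks after crush. All mice were perfused with saline, and CD45+ CD11b+ cells were sorted after an Fc receptor blocking antibody and antibodies carrying hashtag oligos had been added, so that each library held several samples. Hashtags gave 2 sham, 2 crush and 2 PSNL samples at 1 week, each pair with 1 male (M) and 1 female (F), and 3 crush (F1, F2, M1) and 4 PSNL samples (F1, F2, M1, M2) at 15 weeks. How many mice stood behind each hashtag was not given in the sources used here, so p-values measure the spread between hashtag samples. No sham sample was taken at 15 weeks. The library was the same for all samples of an injury and week, apart from the sham samples, of which the male shared the crush library and the female the PSNL library.

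Of 9133 barcodes, 6545 passed the cell filters with 1 hashtag, from 64 cells in sham F to 1555 in crush M1 at 15 weeks, and the 13 samples held 247765 to 15291150 UMIs. Hashtags matched sex in all 13 samples, with at least 767 CPM (UMIs scaled to a common library size) of Xist in females and at most 1.39 in males. The way of calling hashtags had been chosen because another (HTODemux) had left RNA of the other sex in PSNL samples at 1 week. The match to sex is therefore no independent check of the hashtags. The myeloid genes Itgam (121 to 639.9 CPM), Csf1r (269.7 to 814) and Lyz2 (3341 to 12744) were present in every sample. Cells in gates of T or NK, B, mast and stromal or Schwann cell markers numbered 24, 4, 5 and 58. Libraries of the 2 weeks stood apart in quality and in other cells: Gm42418, a gene that collects ribosomal RNA reads, took 7.18% to 18.4% of UMIs at 1 week and 1.33% to 2.34% at 15 weeks, and the neutrophil gene S100a8 lay at 161 to 5475 CPM and 4.32 to 115 CPM. Per the study's methods, Ly6G+ neutrophils were left out of the sort at acute times, and the neutrophil gate held 314 cells, 18.8% of the cells of PSNL at 1 week. Between 1 and 3 barcode sequences were shared by any 2 libraries.

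Fcgr2b, Fcgr4, Fcgr3 and Fcer1g lie near each other on chromosome 1 and Fcgr1 lies elsewhere (GENCODE vM21 on GRCm38). Fcgr1, for the high-affinity receptor FcγRI (CD64), is on the minus strand of chromosome 3 at chr3:96282909-96293969. Fcgr4, for FcγRIV, which prefers the IgG2 subclasses, is on the plus strand at chr1:171018920-171029761. Fcgr3, for the low-affinity activating receptor FcγRIII (CD16), is on the minus strand at chr1:171051174-171064935. Fcgr2b, for the only inhibitory receptor of the family, FcγRIIB (CD32), is on the minus strand at chr1:170958617-170976547, so that Fcgr2b, Fcgr4 and Fcgr3 lie within 106 kb. Fcer1g, for the common gamma chain that the activating receptors need to reach the surface and to signal, is on the minus strand at chr1:171229572-171234365. Exons cover 23.4% of Fcgr1, 11.6% of Fcgr4, 12.6% of Fcgr3, 32.3% of Fcgr2b and 18.2% of Fcer1g, and the rest is intronic. Fcgr2b and Fcgr3 are close relatives, and 136 windows of 60 bases were identical between their transcripts, 8.36% of the windows of Fcgr3 and 3.63% of those of Fcgr2b, whereas no other pair of the 5 shared any. Reads from those stretches cannot be told apart, so the split between Fcgr2b and Fcgr3 is uncertain to that extent.

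The 150 bases before a RefSeq start of each receptor gene (GRCm38.p6) are shown because Fcgr1 and Fcgr4 varied together over the samples and were both highest in cells with interferon-induced genes. Capitals mark matches, on either strand, to 3 motifs: the gamma-activated site GAS (TTCNNNGAA), a core of the interferon-stimulated response element ISRE (GAAA, any 2 bases, GAAA), and a core of the site of the myeloid factor PU.1 (GAGGAAG). The windows are chr3:96293970-96294119 (minus strand), chr1:171018776-171018925 (plus), chr1:171059404-171059553 (minus, the first of 2 listed starts) and chr1:170976072-170976221 (minus), each written 5′ to 3′ along its gene.
Fcgr1: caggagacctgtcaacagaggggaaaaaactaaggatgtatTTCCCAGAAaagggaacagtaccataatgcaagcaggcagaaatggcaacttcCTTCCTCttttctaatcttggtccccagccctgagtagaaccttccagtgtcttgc
Fcgr4: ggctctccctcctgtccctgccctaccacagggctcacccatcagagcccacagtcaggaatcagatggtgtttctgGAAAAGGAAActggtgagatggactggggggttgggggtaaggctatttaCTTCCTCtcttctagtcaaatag
Fcgr3: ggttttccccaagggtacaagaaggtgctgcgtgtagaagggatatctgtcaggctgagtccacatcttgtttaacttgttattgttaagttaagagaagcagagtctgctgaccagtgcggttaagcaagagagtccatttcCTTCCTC
Fcgr2b: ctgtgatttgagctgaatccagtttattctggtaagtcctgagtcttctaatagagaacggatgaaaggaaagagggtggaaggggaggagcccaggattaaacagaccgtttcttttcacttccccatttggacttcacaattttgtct
The Fcgr1 window held a GAS match 109 to 101 bases before the start and a PU.1 match at 56 to 50. The Fcgr4 window held the ISRE match at 73 to 64 and a PU.1 match at 23 to 17, and the Fcgr3 window a PU.1 match in its last 7 bases. None of the 3 was found in the windows of Fcgr2b or Fcer1g. By the GENCODE positions given above, the Fcgr3 and Fcgr2b windows lie inside these genes. The other listed start of Fcgr3 was not searched. Of 32851 mouse promoter windows of the same length, 4.09% held the GAS letters, 1.59% the ISRE letters and 6.85% the PU.1 letters, and a match is a description of the letters only.

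One week after injury, the activating receptor Fcgr1 was the member with the largest values above sham, and Fcgr2b and Fcgr3 differed little. Fcgr1 lay at 56.2 CPM in sham M and 52.5 in sham F (32 and 12 UMIs), at 275 in PSNL F and 289 in PSNL M, and at 47.8 in crush F and 271 in crush M. Both PSNL samples and crush M stood far above the sham samples, and crush F was below them. CPM are scaled by TMM factors, and p-values come from edgeR's quasi-likelihood test with Benjamini-Hochberg adjustment over all genes tested. The PSNL samples were 5.14-fold above sham (log2 difference 2.36, SE 0.652, adjusted p = 0.0545, n = 2 and 2), short of the 0.05 threshold, and in 25 alternative analyses the adjusted p ranged from 0.00234 to 0.359 and passed in 9. Crush differed from sham by 1.55 (SE 0.655, adjusted p = 0.398), and this value rested on 1 sample: without crush F it was 2.33 (adjusted p = 0.0228) and without crush M it was -0.18. None of the 5 members was called in either comparison, which share the 2 sham samples. Of all genes 5.24% were called in PSNL (3.26% higher, 1.99% lower) and 0.174% in crush (0.0697% higher, 0.105% lower).

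**Figure D1:**
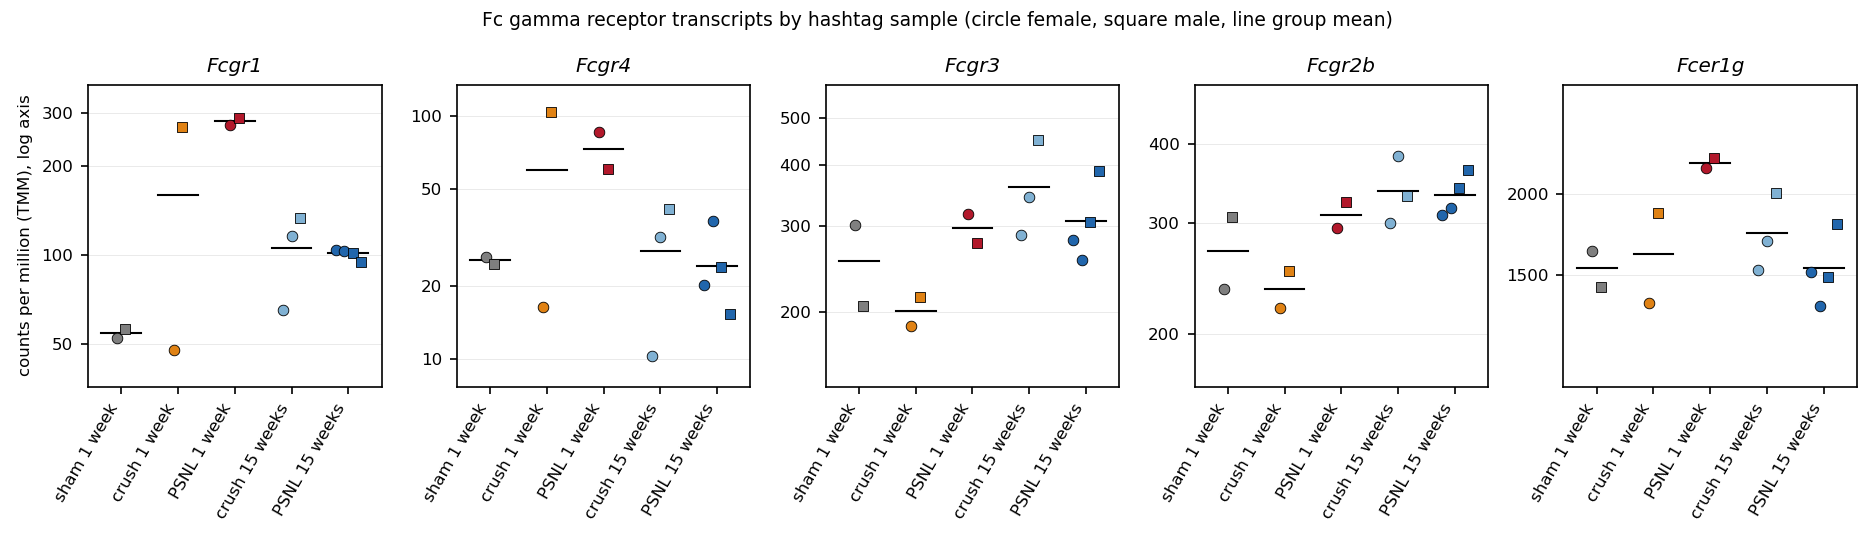
Level of each of the 5 genes (CPM, TMM-scaled, log axes with a scale of their own for each gene) in the 13 hashtag samples, with circles for female samples, squares for male samples and lines for group means. Fcgr1 and Fcgr4 are high in both PSNL samples and in crush M at 1 week and lower at 15 weeks, while Fcgr2b and Fcgr3 span narrow ranges.

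Fcgr4 had the same pattern over the samples. It lay at 24.6 CPM in sham M and 26.3 in sham F (14 and 6 UMIs), 86.2 in PSNL F, 60.7 in PSNL M, 16.3 in crush F and 104 in crush M. Again both PSNL samples and crush M were above sham and crush F was below. The difference from sham was 1.54 for PSNL (SE 0.945, adjusted p = 0.386) and 1.29 for crush (SE 0.951, adjusted p = 0.668). At this depth a change of such size was not detectable with certainty: in data simulated for these samples, 56.5% of 4-fold changes were found between PSNL and sham.

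Fcgr3 and Fcgr2b, the low-affinity activating and the inhibitory receptor, varied less at 1 week. Fcgr3 lay at 206 and 302 CPM in sham M and F, 318 and 277 in PSNL F and M, and 187 and 214 in crush F and M. Fcgr2b lay at 306 and 236 in sham M and F, 294 and 324 in PSNL F and M, and 220 and 252 in crush F and M. Groups overlapped sham for both genes, and their differences from sham were 0.26 and 0.17 in PSNL (adjusted p = 0.641 and 0.640) and -0.31 and -0.22 in crush (0.722 and 0.712). Fcer1g lay at 1439 and 1637 CPM in sham M and F, 2198 and 2271 in PSNL F and M, and 1359 and 1871 in crush F and M. Both PSNL samples were above both sham samples, by 0.54 (SE 0.196, adjusted p = 0.134), which was not called. The share of all genes whose groups stood apart without overlap was not counted, in this or the other comparisons.

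PSNL and crush were compared directly at each week. At 1 week no member was called (12.4% of all genes were, 6.67% higher and 5.71% lower): Fcgr1 differed by 0.81 (SE 0.520, adjusted p = 0.344), Fcgr3 by 0.57 (0.161), Fcer1g by 0.47 (0.137), Fcgr2b by 0.39 (0.158) and Fcgr4 by 0.24 (0.872). Without crush M the Fcgr1 value was 2.56 (adjusted p = 0.00658), and without crush F it was 0.05 (adjusted p = 0.976). At 1 week the library of each injury also held a sham sample, male in the crush library and female in the PSNL library. With library as a term in a fit of the 1-week samples, 10 genes were called in place of 1422. At 15 weeks the library of an injury cannot be told apart from the injury. At 15 weeks Fcgr1 lay at 65.2, 116 and 133 CPM in crush F1, F2 and M1 and at 104, 103, 101 and 94.6 in PSNL F1, F2, M1 and M2, so that PSNL lay inside the range of crush. Differences of the 5 members were between -0.23 and -0.02, with adjusted p of 0.976 to 1.00 by edgeR, and 0% of genes were called. By unadjusted p under 0.05, 547 of 11480 genes differed, and DESeq2 called 8. In simulated data 44.0% of 2-fold and 89.0% of 4-fold changes were found in this comparison.

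Which cells carried Fcgr1 differed between the 1-week samples. Cells were gated by sets of marker genes that hold none of the 5 members, and a cell went to the set with its highest score. In crush M, 176 cells (29.0%) fell in the interferon-responsive gate (Ifit1, Ifit2, Ifit3, Rsad2, Isg15, Cxcl10, Oasl1, Irf7), and these cells held 57.0% of the Fcgr1 UMIs and 62.9% of the Fcgr4 UMIs. In crush F, 3 cells (0.904%) fell there. In PSNL F and M, 4.14% and 6.99% of cells were in this gate with 10.5% and 12% of the Fcgr1 UMIs, and the injury macrophage gate (Spp1, Arg1, Gpnmb and others) held 45.5% and 44.9% of them and the monocyte gate 23.4% and 28.5%. Neutrophil-gated cells were 28.4% of PSNL F and held 29.2% of its Fcgr3 and 28.0% of its Fcgr4 UMIs, but 4.14% of its Fcgr1 UMIs. In sham M and F, resident macrophages (Cd163, Lyve1, Folr2 and others) were 34.3% and 42.2% of cells and held 53.1% and 83.3% of 32 and 12 Fcgr1 UMIs. In these sums over a sample, a different mix of cells and a different amount of RNA per cell cannot be told apart.

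**Figure D2:**
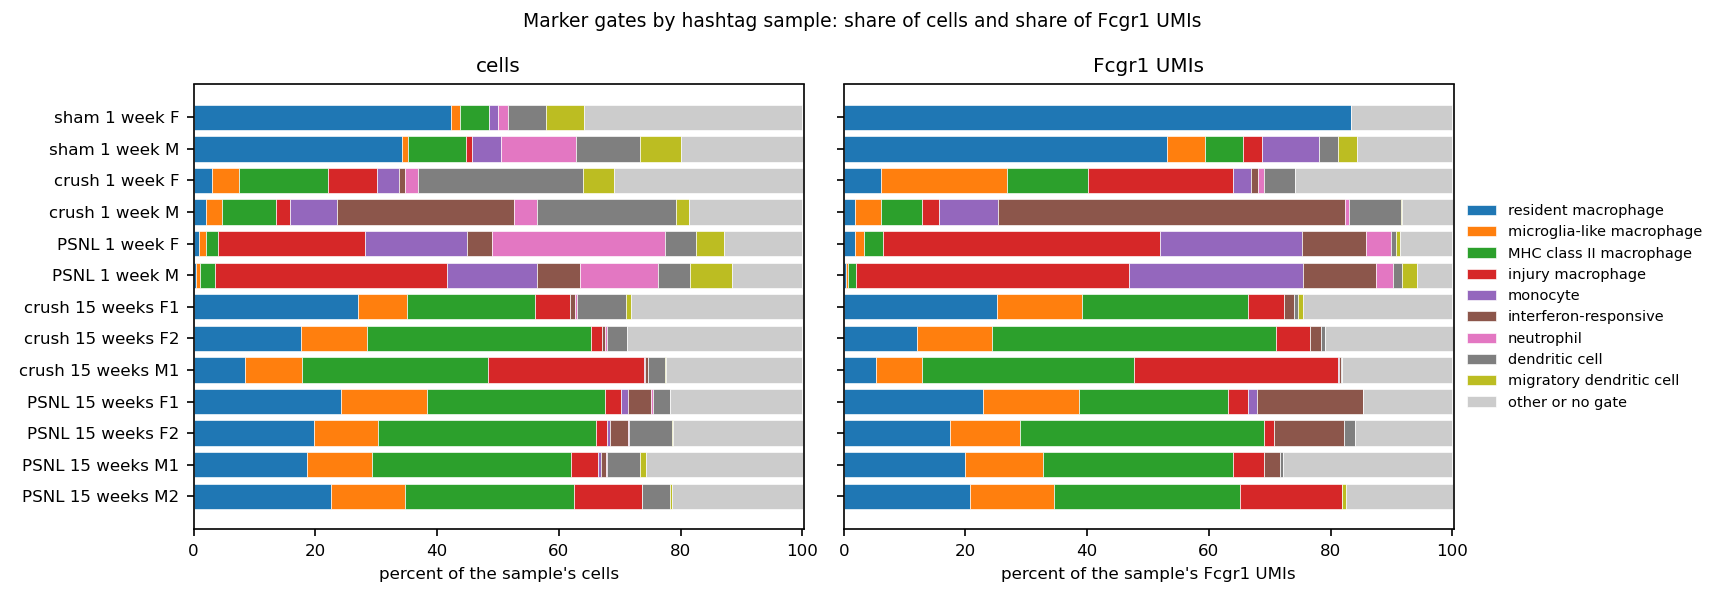
Marker gates in the 13 hashtag samples as a percent of the sample's cells (left) and of its Fcgr1 UMIs (right), with cells of other gates or no gate in light grey. The interferon-responsive gate holds 29.0% of the cells and 57.0% of the Fcgr1 UMIs of crush M at 1 week, and injury macrophages and monocytes hold most of the Fcgr1 UMIs of both PSNL samples at 1 week.

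Between 15 weeks and 1 week, the whole transcriptome shifted with the genomic length of genes, which bears on every value below. From PSNL at 1 week to PSNL at 15 weeks the median log2 difference was -0.54 for genes spanning under 5 kb, -0.39 for 5 to 20 kb, 0.23 for 20 to 100 kb and 1.58 above 100 kb, where 73.6% of genes were called higher. Crush gave -0.34, -0.30, 0.16 and 1.42, whereas PSNL against sham within week 1 gave 0.18, 0.16, 0.08 and 0.00. The matrices carried Cell Ranger 6.0.0 headers at 1 week and 7.0.0 at 15 weeks, and week, software version and batch cannot be told apart. The 5 members span 4.79 kb (Fcer1g) to 17.9 kb (Fcgr2b), so 15-week differences of the members are given from the fit on all genes and from a refit on the 4972 genes spanning under 20 kb, a choice made after seeing the data.

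Fcgr1 and Fcgr4 were lower at 15 weeks than at 1 week after PSNL in the fit on all genes, and Fcgr2b and Fcgr3 were not. The 4 Fcgr1 values at 15 weeks (94.6 to 104 CPM) were all below the 2 at 1 week (275 and 289). This was 2.80-fold lower (log2 difference -1.48, SE 0.434, adjusted p = 0.0109), with 27.0% of all genes called lower and 29.3% higher. In the refit the difference was -0.95 (SE 0.450, adjusted p = 0.107), and without PSNL M at 1 week the adjusted p on all genes was 0.0623. Fcgr4 lay at 20.1, 36.9, 23.8 and 15.2 CPM in PSNL F1, F2, M1 and M2 at 15 weeks, again all below both 1-week samples. It was 3.01-fold lower (-1.59, SE 0.578, adjusted p = 0.0326), a call lost in 7 of 24 alternatives and in the refit (-1.05, adjusted p = 0.181).

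Fcgr2b and Fcgr3 were not lower at 15 weeks. Fcgr3 lay at 281, 256, 306 and 390 CPM and Fcgr2b at 309, 316, 340 and 363 CPM in PSNL F1, F2, M1 and M2 at 15 weeks. The ranges overlapped those of PSNL at 1 week, and the differences were 0.05 (SE 0.216, adjusted p = 0.856) and 0.10 (SE 0.147, adjusted p = 0.571) on all genes. In the refit both were called higher, Fcgr3 by 0.57 (adjusted p = 0.0423) and Fcgr2b by 0.63 (adjusted p = 0.00465), where 23.5% of genes were. Fcer1g lay at 1517, 1346, 1493 and 1800 CPM and was called lower on all genes (-0.54, SE 0.165, adjusted p = 0.0141) but not in the refit (-0.02, adjusted p = 0.947). So the calls of all 5 depended on the scaling. The refit moved all 5 up by a like amount, which leaves their order as it was.

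After crush, Fcgr3 and Fcgr2b were higher at 15 weeks in both fits. Fcgr3 lay at 288, 344 and 451 CPM in crush F1, F2 and M1 at 15 weeks, all above crush at 1 week. It differed by 0.85 (SE 0.233, adjusted p = 0.0114) on all genes and by 1.18 (adjusted p = 0.00327) in the refit, with 24.0% and 13.3% of genes called higher. On all genes 42.5% were called in either direction and 18.5% lower. Fcgr2b lay at 300, 382 and 331 CPM and differed by 0.51 (SE 0.157, adjusted p = 0.0194) and 0.85 (adjusted p = 0.00279). Without crush F at 1 week neither call was made on all genes (adjusted p = 0.0869 for Fcgr3 and 0.143 for Fcgr2b), and that of Fcgr2b was also lost without crush F2 at 15 weeks. Fcgr1 differed by -0.62 (SE 0.470, adjusted p = 0.308) on all genes and by -0.28 (adjusted p = 0.735) in the refit. On all genes it ran from -1.37 without crush F at 1 week to 1.14 without crush M. Fcgr4 lay at 10.2, 31.6 and 41.4 CPM (-1.13, adjusted p = 0.156, refit -0.80, adjusted p = 0.398) and Fcer1g at 1528, 1694 and 2006 CPM (0.11, adjusted p = 0.652, refit 0.44, adjusted p = 0.0579). Whether the change over time differed between PSNL and crush was tested as an interaction, in which 7.80% of genes were called (3.44% higher, 4.36% lower) and no member (adjusted p from 0.124 for Fcer1g to 0.808 for Fcgr4). Fcgr1 had an interaction of -0.87 (adjusted p = 0.454), which was -2.62 (adjusted p = 0.0163) without crush M at 1 week and -0.11 (adjusted p = 0.927) without crush F. In the refit 6.76% of genes were called and again no member (adjusted p from 0.209 for Fcer1g to 0.925 for Fcgr4).

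Against sham, no member was called at 15 weeks on all genes, where 27.8% (PSNL, 16.0% higher and 11.8% lower) and 24.3% (crush, 15.1% higher and 9.16% lower) of genes were. Fcgr1 differed by 0.88 in PSNL (adjusted p = 0.317) and 0.94 in crush (0.308), or 1.24 (0.209) and 1.22 (0.241) in the refit, and every 15-week sample was above both sham samples. In the refit Fcgr2b was called higher in both, by 0.64 (adjusted p = 0.0237) and 0.59 (0.0391), and Fcgr3 in crush by 0.81 (0.0460), where 11.1% and 9.51% of genes were called. Sham was taken at 1 week only, so week and injury cannot be told apart in these values.

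Over the 13 samples, Fcgr1, Fcgr4 and Fcer1g varied together, and Fcgr2b varied with Fcgr3. This is a description without a test, since samples share libraries and depth. Pearson r of log2 CPM was 0.843 between Fcgr1 and Fcgr4, 0.801 between Fcgr1 and Fcer1g and 0.655 between Fcgr4 and Fcer1g. It was 0.640 between Fcgr2b and Fcgr3. Between genes of these different sets it ran from -0.0649 (Fcgr2b and Fcgr4) to 0.480 (Fcgr3 and Fcer1g). Among 3262 genes with a mean of at least 50 CPM, the genes most like Fcgr1 were Ms4a6d (0.880), the lysosomal lipid carrier Npc2 (0.875), the interferon-inducible Ifi211 (0.865), Rnpep (0.857) and Chd7 (0.853). Those most like Fcgr4 were Fcgr1, Cmtm7 (0.827), Chd7 (0.817), Ifi211 (0.813) and Ifi204 (0.812), so that Chd7 and Ifi211 were on both lists. Fcer1g was closest to Tyrobp (0.941), the other ITAM adaptor of myeloid cells, and among the next were Lamp2 (0.896), Gngt2 (0.894) and Npc2 (0.877). Fcgr3 was closest to Rabac1 (0.917), Timp2 (0.884), Slc44a1 (0.875), Fmn1 (0.863) and the macrophage marker Cd68 (0.863), and Fcgr2b to Mthfs (0.884), Spred1 (0.879), Slc7a8 (0.872), Tnpo3 (0.858) and Tbc1d23 (0.856).

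The 5 genes differed between kinds of myeloid cell. Counts were summed for each gate in each sample with at least 20 such cells, which gave 52 sums over 9 gates, and each gate was compared with the mean of the other gates with the hashtag sample as a block (9000 genes). Of 45 member values, 27 were called, and 10 of those stayed past the threshold in every alternative run. Leaving out PSNL F at 1 week lowered the number called to 13. Of all genes, 0.100% (interferon-responsive) to 14.8% (dendritic) were called lower and 3.21% (interferon-responsive) to 22.9% (injury macrophage) higher in a gate. All 5 members were called higher in injury macrophages (log2 differences 0.34 to 0.77, 22.9% of genes called higher and 12.9% lower) and lower in dendritic cells (-3.15 to -0.30, 22.4% higher and 14.8% lower). Of these 10 calls, those of Fcgr3 in both gates and of Fcgr1 in dendritic cells held in every alternative.

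By mean CPM Fcgr1 was highest in interferon-responsive cells and monocytes and lowest in dendritic cells. Its mean was 532 CPM in the interferon-responsive gate (484, 528 and 583 in 3 samples) and 418 in the monocyte gate (351, 358 and 544), whose ranges overlapped. Next came injury macrophages (164, from 46.5 to 354 in 7 samples), MHC class II macrophages (122, from 42.1 to 205 in 10), microglia-like macrophages (112, from 101 to 128 in 7), neutrophils (107, from 81.4 to 145 in 3) and resident macrophages (99.0, from 77.2 to 119 in 9), each overlapping its neighbour. Migratory dendritic cells (28.3 and 99.5 CPM) and dendritic cells (mean 29.0, from 3.15 to 93.7 in 8) came last. The interferon-responsive, monocyte and neutrophil sums were all from 1 week, whereas 4 of the 7 injury macrophage sums were from 15 weeks, so that the order of the means mixes gate with week. Within PSNL F at 1 week Fcgr1 lay at 354 CPM in injury macrophages and 351 in monocytes. The interferon-responsive gate was 2.74-fold above the mean of the others (1.45, SE 0.259, adjusted p = 0.000299) with 3.21% of genes called higher, and the monocyte gate 2.14-fold (1.10, SE 0.254, adjusted p = 0.00569) with 4.37%, a call lost without either PSNL sample of 1 week. The dendritic gate was 4.89-fold below (-2.29, SE 0.248, adjusted p = 3.76e-10), and neutrophils 2.02-fold below (-1.01, SE 0.356, adjusted p = 0.0267, 12% of genes called lower). Smaller values were called for the MHC class II gate (0.62, adjusted p = 0.0375, 6.22% of genes called higher and 2.17% lower) and the microglia-like gate (0.72, adjusted p = 0.0398, 7.51% and 6.68%), and were lost in 9 of 15 and 6 of 14 alternatives.

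Fcgr4 was highest in interferon-responsive cells and neutrophils. It lay at 171, 205 and 294 CPM in the 3 interferon-responsive sums and at 48.8, 111 and 201 in the 3 neutrophil sums, which overlapped. Monocytes followed (54.1 to 82.3), then injury macrophages (mean 39.6), MHC class II macrophages (33.1), microglia-like macrophages (23.3), resident macrophages (15.1), dendritic cells (12.3) and migratory dendritic cells (0 and 10.7), each overlapping its neighbour. The interferon-responsive gate was 4.85-fold above the others (2.28, SE 0.312, adjusted p = 3.85e-06), in all 14 alternatives. The neutrophil gate was 3.18-fold above (1.67, SE 0.369, adjusted p = 0.000403), with 17.4% of genes called higher, and its call was lost without PSNL F at 1 week (adjusted p = 0.249). Resident macrophages were 2.09-fold below (-1.06, SE 0.373, adjusted p = 0.0271, 14.6% of genes called lower), a call lost in 3 of 15 alternatives.

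**Figure D3:**
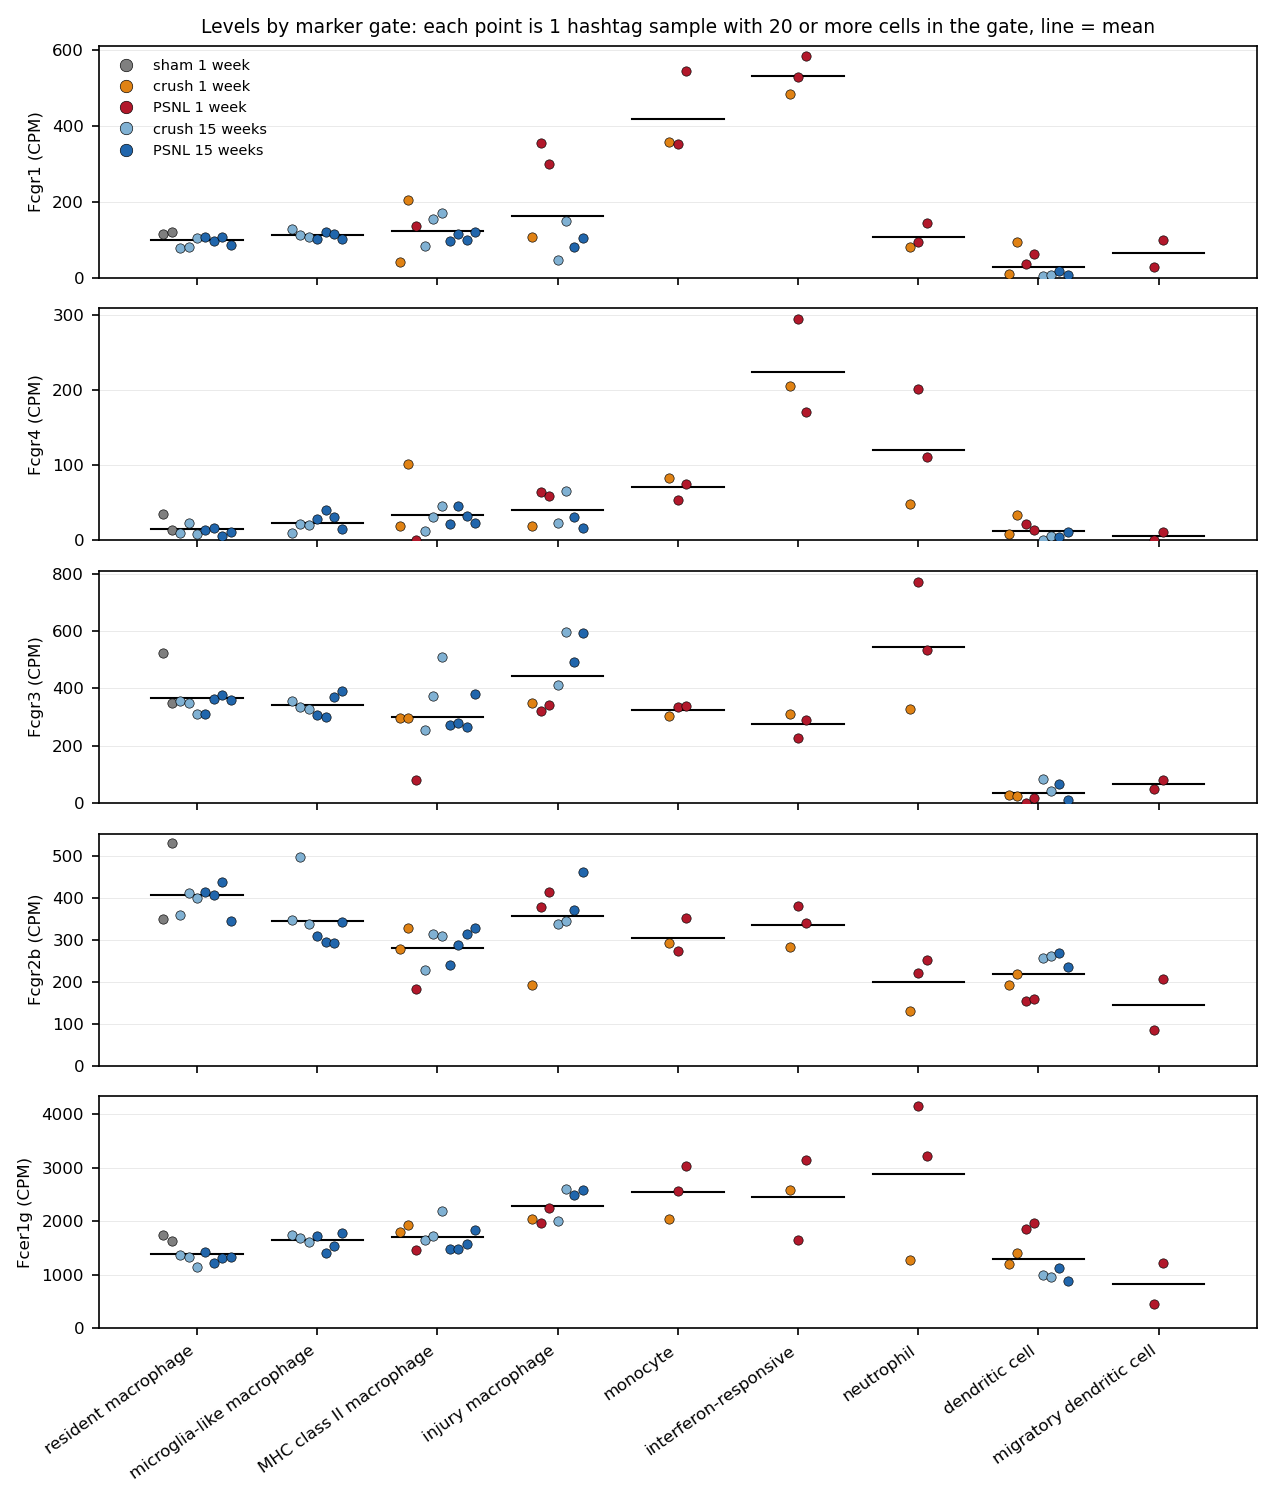
Level of each gene (CPM, TMM-scaled, linear axes from 0) in the 9 marker gates tested, where each point is the sum over 1 gate in 1 sample with at least 20 such cells, coloured by group, and lines are means. Fcgr1 and Fcgr4 stand highest in the interferon-responsive gate, Fcgr3 in neutrophils, and Fcgr3 and Fcgr1 lowest in dendritic cells, where Fcgr2b is retained.

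By mean CPM Fcgr3 was highest in neutrophils and lowest in dendritic cells. It lay at 326, 532 and 771 CPM in the 3 neutrophil sums, and at mean levels of 444 in injury macrophages, 366 in resident macrophages, 341 in microglia-like macrophages, 325 in monocytes, 301 in MHC class II macrophages and 276 in interferon-responsive cells, all overlapping their neighbours. It lay at 47.2 and 81.7 in the migratory dendritic sums and at 0 to 81.9 (mean 33.5) in 8 dendritic sums. Neutrophils were 3.59-fold above the others (1.84, SE 0.256, adjusted p = 1.39e-07) and dendritic cells 8.87-fold below (-3.15, SE 0.224, adjusted p = 3.92e-15), both in every alternative run. Injury macrophages were 1.70-fold above (0.77, SE 0.165, adjusted p = 0.000263), with 22.9% of genes called higher.

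Fcgr2b, the inhibitory receptor, had the smallest ratio between its highest and lowest gate means of the 5 members. Its mean was 406 CPM in resident macrophages (346 to 531 in 9 samples), 357 in injury macrophages, 346 in microglia-like macrophages, 334 in interferon-responsive cells, 305 in monocytes, 281 in MHC class II macrophages, 219 in dendritic cells (154 to 269 in 8 samples), 200 in neutrophils and 146 in migratory dendritic cells. Each overlapped its neighbour in this order. Resident macrophages were 1.42-fold above the other gates (0.50, SE 0.140, adjusted p = 0.00529), a call not made when unsupervised clusters replaced the gates (adjusted p = 0.201). Dendritic cells were 1.23-fold below (-0.30, SE 0.124, adjusted p = 0.0498), and this call was lost in 9 of 15 alternatives. The same cells were 8.87-fold below the other gates in Fcgr3 and 4.89-fold below in Fcgr1.

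Fcer1g was high in all gates. Its mean ran from 2884 CPM in neutrophils (1270, 3228 and 4155), 2547 in monocytes, 2461 in interferon-responsive cells and 2282 in injury macrophages to 1715 in MHC class II macrophages, 1646 in microglia-like macrophages, 1392 in resident macrophages, 1301 in dendritic cells and 838 in migratory dendritic cells. Neighbours in this order overlapped. Migratory dendritic cells were 2.72-fold below the others (-1.45, SE 0.289, adjusted p = 0.000248), and all 5 members were called lower there, where 6.30% of genes were lower and 8.13% higher, from 2 samples of PSNL at 1 week. Neutrophils were 1.62-fold above (0.69, SE 0.206, adjusted p = 0.00835), a call lost without either of these 2 samples.

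Shares of cells with a UMI were compared after each cell was thinned to 2000 UMIs, which 5946 cells reached and 599 did not. Fcgr3 was found in 55.2% of resident macrophages (95% exact interval 51.4% to 58.9%), 50.0% of neutrophils (41.6% to 58.4%) and 4.18% of dendritic cells (2.57% to 6.39%). Its share was thus not higher in neutrophils than in resident macrophages, unlike its level in CPM. It was found in 1 of 22 T or NK cells (4.55%, interval 0.115% to 22.8%, median depth before thinning 5204 UMIs against 7952 in dendritic cells), and since NK cells can carry this receptor these cells give no background level for it. The dendritic sums held up to 52 Fcgr3 UMIs in 39 cells (81.9 CPM, crush F1 at 15 weeks). Fcgr1 was found in 54.8% of interferon-responsive cells, 44.8% of monocytes, 22.1% of resident macrophages, 7.11% of dendritic cells and 0 of 22 T or NK cells (upper limit 15.4%). Fcgr4 was found in 22.6% of interferon-responsive cells, 19.2% of neutrophils, 2.41% of resident macrophages and 0.837% of dendritic cells. Fcgr2b was found in 57.2% of resident macrophages and 32.4% of dendritic cells but in 16.4% of neutrophils. Without thinning these shares were higher where cells were deeper, for example 80.3% for Fcgr3 in resident macrophages and 14.9% in dendritic cells. Of 314 neutrophils 168 were too shallow to be thinned, and all these intervals cover counting error only. The Fcgr1 and Fcgr2b UMIs of the 58 stromal or Schwann gated cells (73 and 159) came to 143 and 311 CPM, within the range of the macrophage gates.

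Within a gate, groups of samples could be compared where 2 or more samples each had 20 cells. In injury macrophages Fcgr1 lay at 354 and 300 CPM in PSNL F and M at 1 week and at 81.1 and 105 in PSNL M1 and M2 at 15 weeks. The difference was -1.75 (SE 0.410, adjusted p = 0.00942, 11.2% of genes called lower) and was also called among genes under 20 kb (-1.48, adjusted p = 0.0445). It stayed between -1.98 and -1.62 when 1 of the 4 samples was left out, with adjusted p of 0.0940 without PSNL M1 and 0.0556 without PSNL M2 at 15 weeks, where a lone sample is assumed to vary like the others. The sample sums behind these values were 264, 537, 24 and 51 UMIs. In the same cells Fcgr3 rose from 322 and 341 CPM to 493 and 592 (0.76, SE 0.250, adjusted p = 0.0435, 17.3% of genes called higher, and 1.04 with adjusted p = 0.0122 among genes under 20 kb), and this call was lost without any 1 of the 4 samples (adjusted p from 0.0749 to 0.265). Fcgr4 lay at 64.3 and 58.2 CPM against 30.4 and 16.5 (-1.41, adjusted p = 0.0539). Fcer1g differed by 0.31 (adjusted p = 0.332) on all genes and by 0.60 (adjusted p = 0.0447) among genes under 20 kb, where 8.80% of genes were called higher. The mix of cells in the gate differed between the weeks. Of its cells, 87.6% and 95.5% in PSNL F and M at 1 week and none in PSNL M1 and M2 at 15 weeks were in the unsupervised cluster led by Spp1, Fn1 and Arg1, whereas none at 1 week and 15 of 23 and 24 of 40 cells at 15 weeks were in the cluster led by Gpnmb, Apoe and Fabp5. Median depth was 6277 and 5664 UMIs per cell at 1 week and 11813 and 12835 at 15 weeks. The part of this mix and depth in the values within the gate was not tested.

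In dendritic cells 2 further values were called on all genes and 1 among genes under 20 kb. Fcer1g lay at 1853 and 1968 CPM in PSNL at 1 week and at 1127 and 881 in PSNL F2 and M1 at 15 weeks (-0.96, SE 0.185, adjusted p = 0.00504, 8.67% of genes called lower), which was -0.31 (adjusted p = 0.363) among genes under 20 kb. Without PSNL M at 1 week or PSNL M1 at 15 weeks its adjusted p was 0.0679 and 0.0712. Fcgr1 lay at 8.12 and 93.7 CPM in crush F and M at 1 week and at 3.15 and 5.48 at 15 weeks (-3.46, SE 1.03, adjusted p = 0.0451, 3.72% of genes called lower), and it was -0.82 (adjusted p = 0.764) without crush M, -3.23 (adjusted p = 0.149) among genes under 20 kb and not called in 6 of 15 alternatives. The high value in crush M stood on 76 UMIs and the other 3 on 5 or fewer. Fcgr2b lay at 154 and 159 CPM in PSNL F and M at 1 week (21 and 46 UMIs) and at 269 and 236 in PSNL F2 and M1 at 15 weeks. The difference was 0.66 on all genes (adjusted p = 0.0650) and 1.32 among genes under 20 kb (adjusted p = 0.0114), where 3.55% of genes were called higher. No member was called between 15 weeks and sham in resident macrophages, the one gate with 2 sham samples, where 10.9% and 10.8% of genes were called higher and 5.46% and 4.76% lower. Fcgr1 differed there by -0.18 in PSNL and -0.34 in crush on all genes (adjusted p = 0.735 and 0.507) and by 0.21 and 0.09 among genes under 20 kb (adjusted p = 0.791 and 0.944), so its sign turned with the genes fitted. No member was called between PSNL and crush at 15 weeks within the 5 gates tested (adjusted p from 0.714 to 1.00), where at most 0.0134% of genes were.

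The balance of activating and inhibitory receptors was taken as the UMIs of Fcgr1, Fcgr3 and Fcgr4 over those of Fcgr2b, a ratio within a sample that no scaling of libraries alters. UMI capture can differ between genes, so the ratio is compared between samples and gates only, not with 1. Whether introns were counted at 15 weeks only is not given. Such counting could change each gene's UMIs by a different amount, and its part in ratios compared between weeks was not tested. It was 0.937 in sham M and 1.61 in sham F, 2.31 and 1.93 in PSNL F and M at 1 week, and 1.14 and 2.34 in crush F and M at 1 week. At 15 weeks it was 1.31, 1.26, 1.27 and 1.38 in PSNL F1, F2, M1 and M2 and 1.21, 1.29 and 1.89 in crush F1, F2 and M1. Both PSNL samples at 1 week were above both sham samples and above all 4 PSNL samples at 15 weeks, while the crush samples spread over most of the range at each week. The sham values rest on 163 activating and 174 Fcgr2b UMIs in sham M and 87 and 54 in sham F, and the activating share was 48.4% (95% exact interval 42.9% to 53.8%) and 61.7% (53.1% to 69.8%). On the log2 scale the 2 sham samples (-0.09 and 0.69) stood as far apart as the means of sham (0.30) and PSNL (1.08).

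**Figure D4:**
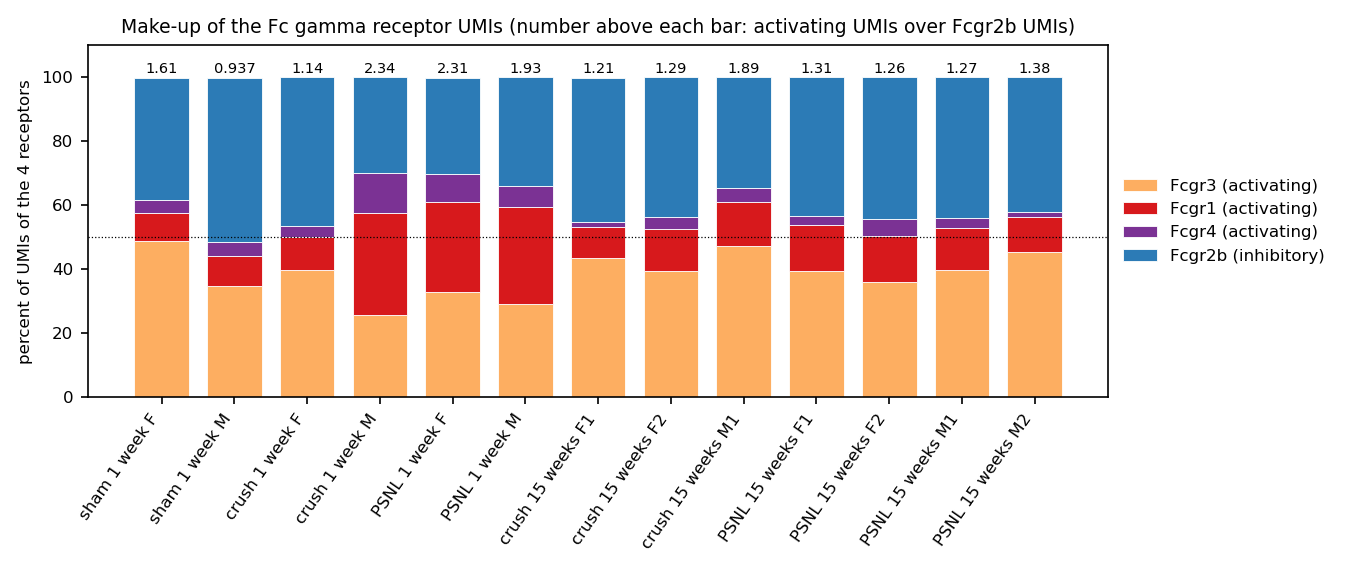
Share of each receptor gene (percent of the UMIs of Fcgr1, Fcgr3, Fcgr4 and Fcgr2b together) in the 13 hashtag samples; each bar adds up to the whole of that sample's receptor UMIs. Fcgr1 takes 28.2% to 32.2% in both PSNL samples and crush M at 1 week and 8.51% to 14.6% in all other samples.

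Exact permutation tests over samples (two-sided, 10 comparisons) gave no adjusted p under the threshold. PSNL at 15 weeks differed from PSNL at 1 week by -0.70 on the log2 scale (p = 0.0667, the smallest that 4 against 2 samples allow, adjusted p = 0.567 in this exact test). PSNL at 1 week was higher than sham by 0.78 (exact p = 0.333, the smallest possible, adjusted p = 0.875) and crush by 0.41 (exact p = 0.667). Over both injuries, 15 weeks against 1 week, permuted within each injury, gave -0.44 (exact p = 0.113, smallest possible 0.00667). PSNL against crush, permuted within each week, gave 0.12 (exact p = 0.814). The share of Fcgr1 among the receptor UMIs was 28.2% and 30.4% in PSNL at 1 week, 32.2% in crush M, 10.2% in crush F, 9.50% and 8.51% in sham, 11% to 14.6% in PSNL at 15 weeks and 9.84% to 13.9% in crush at 15 weeks. Fcgr1 and Fcgr4 over Fcgr2b alone were 1.23 and 1.08 in PSNL at 1 week, 1.49 in crush M, 0.291 in crush F, 0.264 and 0.333 in sham, 0.302 to 0.445 in PSNL at 15 weeks and 0.252 to 0.528 in crush at 15 weeks. Fcgr3 over Fcgr2b, by contrast, ranged from 0.672 to 1.36 with no separation of the groups.

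The balance differed between gates, whose means come from different sets of samples. Its geometric mean over samples was 0.310 in dendritic cells (0.118 to 0.685 in 8 samples), 1.18 in resident macrophages (0.908 to 1.93 in 9), 1.40 in microglia-like macrophages (0.945 to 1.77 in 7), 1.57 in MHC class II macrophages (1.20 to 2.35 in 10), 1.83 in injury macrophages (1.43 to 2.46 in 7), 2.66 in monocytes (2.55 to 2.73 in 3), 3.11 in interferon-responsive cells (2.75 to 3.53 in 3) and 3.90 in neutrophils (3.14 and 4.84). Migratory dendritic cells had 0.931 in the 1 sample with enough UMIs. Within the same samples, MHC class II macrophages were 5.09-fold above dendritic cells in 7 of 7 samples (exact sign permutation p = 0.0156, adjusted p over 6 gate pairs = 0.0469). They were 1.43-fold above resident macrophages in 7 of 7 (same exact p and adjusted p). When 1 sample was left out, both differences kept their direction, and their adjusted p in this exact test ranged from 0.0391 to 0.0625. Injury macrophages were 7.02-fold above dendritic cells in 6 of 6 (exact p = 0.0312, adjusted p = 0.0625). Each of these exact p-values was the smallest that 7 or 6 shared samples allow. The remaining 3 pairs, resident against microglia-like, microglia-like against MHC class II and injury against MHC class II macrophages, had adjusted p of 0.0938, 0.281 and 0.263 in the same exact test.

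**Figure D5:**
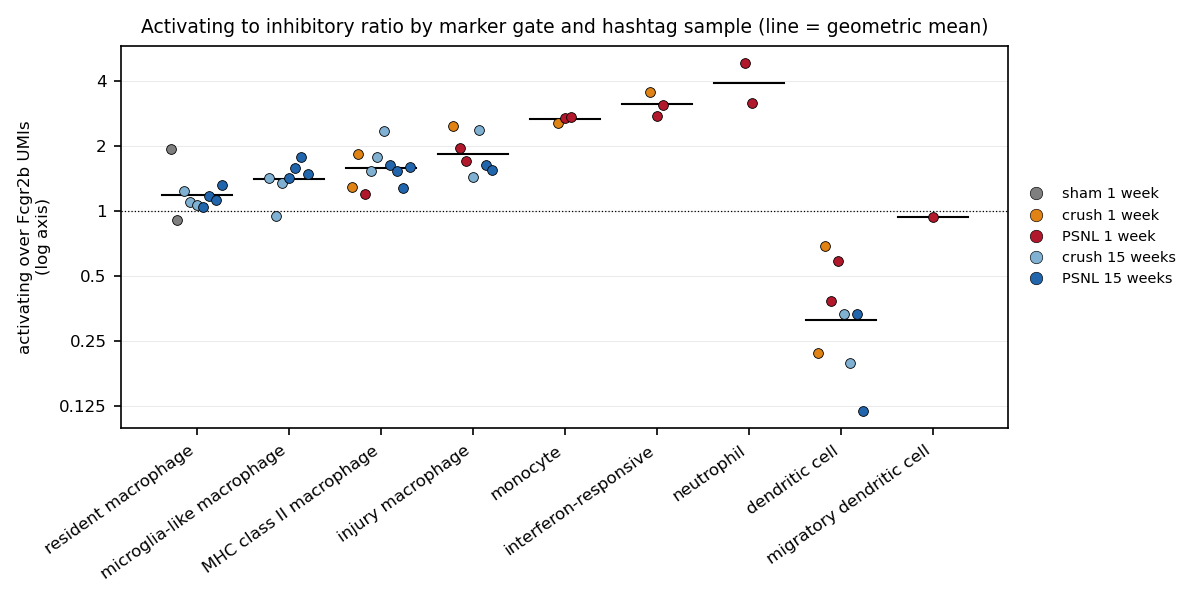
Ratio of activating (Fcgr1, Fcgr3, Fcgr4) to inhibitory (Fcgr2b) receptor UMIs by marker gate, on a log axis; points are samples with at least 20 Fcgr2b UMIs in the gate and lines mark geometric means. Dendritic cells lie lowest (0.118 to 0.685) and neutrophils, interferon-responsive cells and monocytes highest (2.55 to 4.84).

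Gates with high ratios were unevenly spread over the groups. Resident macrophages made up 37.3% of sham cells and 0.641% of PSNL cells at 1 week, injury macrophages 32.8% of PSNL and 4.37% of crush cells at 1 week, neutrophils 18.8% of PSNL cells at 1 week, and dendritic cells 24.4% of crush cells at 1 week. Resident macrophages were 20.8% and MHC class II macrophages 31.9% of PSNL cells at 15 weeks. Without the neutrophil, eosinophil and non-myeloid gates, the ratio of PSNL at 1 week differed from sham by 0.76 on the log2 scale, against 0.78 in all cells. PSNL at 15 weeks then differed from PSNL at 1 week by -0.60, against -0.70 in all cells. The part of the other gates in the ratios over whole samples was not tested. Within injury macrophages the ratio was 1.96 and 1.69 in PSNL at 1 week and 1.63 and 1.54 in PSNL at 15 weeks, 2.46 in crush F at 1 week, and 1.43 and 2.36 in crush at 15 weeks.

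Cells were also counted by which receptors had a UMI. After thinning to 2000 UMIs, 13% to 32.1% of the cells of a sample had both an activating receptor and Fcgr2b, 22.5% to 36.0% an activating receptor only, 11.2% to 21.0% Fcgr2b only, and 17.6% to 46.3% neither. Cells with both were 17.0% and 21.0% in PSNL at 1 week and 26.7% to 32.1% in PSNL at 15 weeks. Cells with an activating receptor only were most frequent in PSNL F at 1 week (36.0%), crush M1 at 15 weeks (35.0%) and crush M at 1 week (34.4%). A gene without a UMI at this depth may still be expressed. No value for chance overlap was computed, and doublets that carry 1 hashtag cannot be seen by their hashtags.

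Other genes of the pathway were taken from lists written with earlier results of these data known. One list held 7 genes, of which 5 were tested and Oscar and Clec7a were not. Those tested were 3 C-type lectins that use Fcer1g, the receptor Trem2 and Tyrobp, the ITAM adaptor that Trem2 signals through. Of these 5 genes, 4 were higher than sham at 1 week after PSNL, where 3.26% of all genes were, with a list median of 2.82 on the log2 scale against 0.10 for all genes. Clec4d (MCL) and Clec4e (Mincle) each rose by 3.69 (adjusted p = 0.00233 and 0.00965), Clec4n (Dectin-2) by 2.82 (adjusted p = 0.0291) and Trem2, a lipid receptor, by 1.79 (adjusted p = 0.0467). The neutrophil gate held 8.28% of sham cells, 18.8% of PSNL cells at 1 week and 0.182% at 15 weeks, and S100a8 lay at 161 to 5475 CPM at 1 week and 4.32 to 115 at 15 weeks. The part of neutrophils in these values was not tested. Among 8 other ITIM receptors, Pirb and Lilrb4a rose by 0.95 and 0.83 (adjusted p = 0.0237 and 0.0326). Of 11 proximal kinases and adaptors the adaptor Sh3bp2 rose by 1.20 (adjusted p = 0.0397), and of 15 downstream effectors and 7 inhibitory phosphatases and ligases none was called. Of 5 other immunoglobulin receptors tested, the neonatal Fc receptor Fcgrt and the Fc receptor-like Fcrls were lower, by -2.09 and -2.67 (adjusted p = 0.00334 and 0.00426), and Ighm, the IgM heavy chain, by -1.89 (adjusted p = 0.0101). In crush at 1 week 1 gene of all these lists was called against sham, where 0.174% of all genes were. It was the ITIM receptor Lilrb4a, which was lower by -1.19 (adjusted p = 0.0486). At 15 weeks no listed gene was called between PSNL and crush, where 0% of all genes were.

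Between 15 weeks and 1 week after PSNL the 3 lectins that use the common gamma chain were lower in both fits. On all genes 4 of the 5 genes tested of that list were called lower, where 27.0% of genes were lower and 29.3% higher (list median -2.70 against 0.03 for all genes), Clec4e by -6.46 (adjusted p = 1.04e-06), Clec4d by -3.63 (adjusted p = 2.96e-06), Clec4n by -2.70 (adjusted p = 0.000196) and Tyrobp by -0.75 (adjusted p = 0.00245). Among genes spanning under 20 kb, 3 of the 5 were lower (Clec4d, Clec4e and Clec4n) and Trem2 was higher, with a median of -2.17 against 0.10. Fcgrt and Fcrls were higher in both fits, by 1.42 and 2.95 on all genes (adjusted p = 0.000385 and 3.56e-05), and Ighm by 2.00 (adjusted p = 0.000111). Of 11 proximal kinases and adaptors 4 were higher and 2 lower on all genes, among them Gab2 (3.86), Blnk (2.89), Btk (1.04) and the Src-family kinase Fgr (-1.54), but 1 of the 11 spans under 20 kb and it was not called in the refit. Of 15 downstream effectors 4 were higher and 9 lower, and of the 3 that the refit kept, the NADPH oxidase subunit Ncf1 and the GTPase Rac2 were lower. On all genes the inhibitory phosphatase gene Inpp5d (SHIP1), through which FcγRIIB acts, was higher by 1.55 and Ptpn6 (SHP-1) lower by -0.88. The refit kept 3 of the 7 genes of this list and called none of them. In this comparison the median over genes spanning more than 100 kb was 1.58, and the part of gene length in the Inpp5d value was not tested. After crush the list with the 3 lectins had 1 gene higher and 1 lower on all genes, where 24.0% were called higher and 18.5% lower, with Trem2 (1.28, adjusted p = 0.0194) higher in both fits. Between the injuries the change over time differed, by the interaction on all genes, for Clec4d (-4.35, adjusted p = 0.00190), Clec4e (-4.48, adjusted p = 0.00908) and Clec4n (-2.81, adjusted p = 0.0310). The change from 1 to 15 weeks was thus lower after PSNL than after crush for these 3 of the 5 genes tested. Of all genes 4.36% were called lower in the interaction. At 1 week itself 3 of the 5 were called higher in PSNL than in crush, where 6.67% of all genes were. The list median there was 3.63 against -0.02 for all genes.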

How the data were processed

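The authors sequenced 3' single-cell libraries of hashtagged CD45+ CD11b+ sciatic nerve cells and deposited Cell Ranger matrices of whole-number UMI counts, 1 library per matrix, with hashtag counts as rows (file headers: Cell Ranger 6.0.0 for the early libraries, 7.0.0 for the late ones). Version 7 counts intronic reads unless told otherwise. Whether introns were counted is not given in the sources used here, and it could raise long genes at 15 weeks. Columns of per-sample values that were not used numbered 0.

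Barcodes with at least 500 genes and under 10% mitochondrial UMIs were kept, and hashtags were called at the valley of each tag's log counts, which matched HTODemux (Seurat 5.3.0) in 6268 of 6545 cells. Barcodes with several hashtags were removed as doublets. Scrublet called 9 more, too few to be used as a caller, so dropping the highest 6% of its scores was an alternative. Cells were gated on 102 marker genes with no member among them: a cell joined the list with its highest mean z-score if that was at least 0.5 and at least 2 markers were detected, and 1234 cells joined none. Each gate holds a range of scores rather than a type, and 3 (neutrophils) to 271 (MHC class II macrophages) cells of the gates tested lay within 0.1 of the limit or of a second gate.

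UMIs were summed per hashtag sample and tested with edgeR 4.0.16 (quasi-likelihood, TMM, filterByExpr, R 4.3.3) with all 13 samples in 1 fit and 8 residual degrees of freedom. Adjusted p-values are Benjamini-Hochberg over all genes tested, with a threshold of 0.05. Gates were tested with the sample as a block (31 residual degrees of freedom). Ratios were tested by exact permutation (scipy 1.17.1). Other tools were DESeq2 1.42.0, Python 3.11.15, numpy 2.4.6 and scanpy 1.11.5. The fit was tested on simulated data with 200 changed genes of 11480.

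The members, markers and pathway lists were chosen with earlier results of these data known. The 5 members are always named. Of each pathway list at most the 4 genes with the smallest adjusted p per comparison are named, with genes that remained called among those under 20 kb named after their values were seen, and for each member the 5 genes most alike it, of which 1 is not reported here. Sequences are from RefSeq, and all 5 symbols matched. Alternatives were other hashtag calls, normalisations, filters and cell sets, sex or library as a term, stricter gates, unsupervised clusters and leaving out each sample. Leaving out samples in the gate fits and refitting short genes were added after seeing the data.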

Additional observations from a re-analysis of the deposited data

Results flagged for a closer look

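Dixon's test was run on 36 sets of 4 to 10 samples, within gates or over whole samples of PSNL at 15 weeks. In 5 of them (13.9%), all within gates, a sample lay far from the others. For independent sets of like samples chance gives about 1 in 20. The gate sets pool groups and weeks, and the ratios use the same UMIs as the genes, so the 2 shares cannot be compared. In resident macrophages both sham samples stood out. Fcgr2b was 531 CPM in sham M, against 346 to 439 in the other 8 samples. Fcgr3 was 523 CPM in sham F, against 309 to 378, and the ratio of activating to inhibitory UMIs there was 1.93, against 0.908 to 1.32. These 2 samples had 36 and 27 such cells and are the only ones of the 9 from week 1. In microglia-like macrophages Fcgr2b was 498 CPM in crush F2 at 15 weeks, from 37 cells, against 292 to 347 in the other 6. In MHC class II macrophages Fcgr4 was 102 CPM in crush M at 1 week, against 0 to 45.3 in the other 9, and this is the sample with 29.0% of its cells in the interferon-responsive gate.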

How the results depend on the processing

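Of 853 alternative values of 48 named member results, 735 kept their direction and side of the threshold, 97 lost the call, 19 gained it and 2 reversed. Fcgr1 in crush against sham at 1 week reversed to -0.18 without crush M (leave-one-out range -0.18 to 2.33), and Fcgr1 in crush at 15 weeks against 1 week to 1.14 (range -1.37 to 1.14). Leaving out 1 sample moved the number of genes called from 602 to between 164 and 846 for PSNL against sham, from 20 to between 0 and 101 for crush against sham, from 1422 to between 354 and 1801 for PSNL against crush at 1 week, from 0 to between 0 and 2 at 15 weeks, from 4874 to between 3005 and 5162 for crush at 15 weeks against 1 week, from 3187 to between 960 and 3316 and from 2784 to between 781 and 2817 for PSNL and crush at 15 weeks against sham, and from 896 to between 197 and 1174 for the interaction. The 27 member calls between gates became 13 to 27 and the 4 within gates 1 to 5. Crush against sham at 1 week (20 genes) gave 48 with HTODemux, 2 with a 3-fold hashtag margin, 121 with DESeq2, 11 with RLE factors, 153 with no filter on low counts, 10 without Gm42418, mitochondrial and ribosomal protein genes, 55 with looser cell filters, 4 without the highest Scrublet scores, 38 without neutrophil, eosinophil and non-myeloid gates, 51 with sex as a term and 0 with library as a term. PSNL against sham gave 982 with looser filters and 133 with library as a term, and PSNL against crush at 1 week 10 with library as a term. PSNL against crush at 15 weeks (0 genes) gave 8 with DESeq2, 9 with no filter and 2 with sex as a term. With F1, F2 and M1 as a replicate block it again gave 0, and correlations of 0.0818, 0.162 and 0.112 between same-numbered samples did not pair them in all 3 cases.

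Of the receptor balance (log2), with Fcgr3 alone over Fcgr2b crush against sham was -0.12, crush at 15 weeks against 1 week 0.31, PSNL at 15 weeks against sham -0.01, PSNL against crush within week -0.01 and 15 weeks against 1 week 0.12. With Fcgr1 and Fcgr4 over Fcgr2b, PSNL against crush at 15 weeks was 0.01. With the mean over cells, crush against sham was -0.06, crush at 15 weeks against 1 week 0.04, PSNL at 15 weeks against sham -0.21 and crush at 15 weeks against sham -0.01. Leaving out 1 sample gave -0.11 to 0.93 for crush against sham, -0.15 to 0.89 for PSNL against crush at 1 week and -0.26 to 0.06 at 15 weeks, -0.70 to 0.33 for crush at 15 weeks against 1 week, -0.31 to 0.47 and -0.17 to 0.62 for PSNL and crush at 15 weeks against sham, and -0.14 to 0.37 for PSNL against crush within week. Between gates, the stricter gate gave -0.57 for resident against microglia-like macrophages, now past the threshold, and 0.04 for microglia-like against MHC class II macrophages. Leaving out 1 sample gave -0.38 to -0.23 and -0.58 to -0.42 for resident against microglia-like and MHC class II macrophages, and 2.14 to 2.57 for MHC class II macrophages against dendritic cells. Injury macrophages against dendritic cells gave 2.81 wherever the sample left out was not among the 6 of the pair, and 2.62 to 3.07 when it was, values added without a test after seeing the data. Adjusted p of the exact tests then lay between 0.0391 and 0.0625 for the calls of MHC class II against resident macrophages and dendritic cells, and without crush F2 at 15 weeks the other 2 pairs reached 0.0469. The cause of these changes was not tested unless named. Fcgr1 and Fcgr4 in sham stand on 32 and 12 and on 14 and 6 UMIs, which limits every comparison with sham.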

Other observations

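Cells outside the gates tested also held receptor UMIs, with too few cells for a comparison. The 64 eosinophil-gated cells (Ccr3, Siglecf and others), mostly of crush at 1 week, had 23 Fcgr3 UMIs (253 CPM of the gate's own total, exact Poisson interval 160.5 to 379.9), 21 of Fcgr2b (231, 143 to 353) and 77 of Fcer1g (848, 669 to 1059), at a median of 1004 UMIs per cell. The 5 mast cells had 20 Fcgr3 UMIs (325 CPM, 199 to 502), 17 of Fcgr2b (276, 161 to 442), 0 of Fcgr4 (up to 59.9 CPM) and 79 of Fcer1g (1284, 1016 to 1600), the chain that mast cells also use in their IgE receptor. The 24 T or NK cells had 240 Fcer1g UMIs (1451 CPM, 1273 to 1646) but 6 of Fcgr1 (36.3, 13.3 to 78.9), and the 4 B cells 3 of Fcgr2b (100.1, 20.6 to 292). These intervals cover counting error only.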
